A study of Mus musculus with 16 samples.

Results

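Rassf1a and Sav1 were lost alone and together in mouse liver, and the departure of the combined genotype from additivity was measured for each gene. Additivity means that the log2 change of Rassf1a-/- livers and the log2 change of Sav1+/- livers, each against wild type, add up to the change in livers with both alterations, so that the fold changes multiply. The interaction of a gene is the mean of Rassf1a-/- Sav1+/- livers minus the mean of Rassf1a-/- livers minus the mean of Sav1+/- livers plus the mean of wild-type livers. A positive interaction places the combined genotype above the additive level, and a negative one places it below. All 16 arrays of the study enter each interaction. Of 35556 probe sets, 21789 name exactly 1 gene, and they stand for 19938 genes. After a filter on low signal and with 1 probe set per gene, 13152 genes were tested.

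The livers came from mice of strain 129 in 4 genotypes with 4 arrays each. Rassf1a-/- Sav1+/- mice lack both copies of Rassf1a and 1 copy of Sav1, Rassf1a-/- mice lack Rassf1a alone, Sav1+/- mice lack 1 copy of Sav1, and wild-type mice carry neither alteration. The labels name no Cre driver or promoter, and the sources used here do not state age, sex, tumour status or time of day. Whole liver RNA was measured, so fewer cells of a type and less RNA per cell cannot be told apart.

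Rassf1a is the long isoform of Rassf1, a scaffold protein and tumour suppressor that binds microtubules and the MST kinases. Sav1 is the adaptor that brings MST kinases and LATS kinases together in the Hippo pathway. When this kinase cascade is active, the transcriptional coactivator YAP is kept out of the nucleus, and in liver the pathway is known for restraining organ size and bile duct cell fate. Both genes act on MST kinases, and the title of the study names liver tumours, beta tubulins and the kinase Tbk1 beside Rassf1a.

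Several facts of the arrays bear on every interaction. Of 12 hepatocyte markers listed, 11 were measured, and their mean level lay between 13.08 and 13.39 on all arrays, near the top of the signal range. Sav1 served as a check on the labels: its mean was 7.65 ± 0.27 in Rassf1a-/- Sav1+/- livers, 8.61 ± 0.14 in Rassf1a-/- livers, 7.64 ± 0.37 in Sav1+/- livers and 8.53 ± 0.11 in wild-type livers (log2 units, SD, n = 4 each). The Rassf1 probe set does not separate the Rassf1a isoform from the other transcripts of the gene, so it checks nothing. Y-linked genes were high, at mean levels from 8.87 to 9.18, on 2 of the Rassf1a-/- Sav1+/- arrays, 1 of the Rassf1a-/- arrays and 2 of the Sav1+/- arrays. They were low on the other 11 arrays, all 4 wild-type arrays among them, so this signal was unevenly spread over the genotypes. Xist, the RNA gene of X inactivation, was the mirror image. It read 2.12 to 4.31 on the 5 arrays of high Y-linked signal and 10.34 to 11.47 on the other 11. By both signals the 5 arrays read as male livers and the other 11 as female livers, although no label states sex. Sav1+/- replicates 1 and 2 had the lowest array weights in limma (0.279 and 0.276, against 0.455 to 2.58 for the other 14 arrays). They are also the only Sav1+/- arrays of low Y-linked signal. Leaving both out keeps only Sav1+/- arrays of high signal, and the setting of 11 arrays keeps only these 2. Within Sav1+/-, array weight and Y-linked signal therefore cannot be told apart. For the 9 lists described first, counts at an unadjusted p are also given for the 11 arrays of low Y-linked signal and for any single array that moved them by over 1.5 times.

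No gene departed from additivity by a margin that passed the test. At an adjusted p under 0.05 in limma, 0 of 13152 genes lay above additivity (0%) and 0 below (0%), and the smallest adjusted p was 0.316. At an unadjusted p under 0.05, 758 genes (5.76%) lay above and 478 (3.63%) below. The median interaction was 0.09 on the log2 scale, and 8209 genes (62.4%) had a value above 0 while 4943 (37.6%) had one below. This balance depended on scaling. With every array centred on its median, 424 genes lay above and 678 below at the unadjusted threshold, and the median interaction was 0.012.

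The 16 arrays resolve large departures only. The median standard error of an interaction was 0.26 and the median 95% interval reached 0.54 to either side, which corresponds to 1.46-fold. For 10217 genes (77.7%) the 95% interval lay wholly within 1 log2 unit of 0. Named genes below therefore stand for the lowest p-values and for members of gene lists, and none of them passed the adjusted threshold for the interaction.

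Gene lists separated by function along the interaction scale. Of 50 lists, 47 had at least 5 measured genes. Interferon-stimulated genes, cytosolic ribosomal proteins, mitochondrial ribosomal proteins and respiratory chain subunits lay mostly below additivity. Amino acid transporters, genes of the pericentral zone of the liver lobule, acute phase genes, complement and coagulation factors and bile acid genes lay mostly above it. Lists of male-biased and female-biased liver genes had the most extreme medians and very wide intervals, and they followed the Y-linked signal of the arrays. The lists were ranked by the interaction itself, so their medians are a description with no test. All lists rest on the same arrays and are not independent. Among Sav1+/- arrays, replicate 1 was highest and replicate 2 lowest for ribosomal (12.02 and 11.60) and respiratory genes (11.80 and 11.49). The order was opposite for amino acid transporters (10.31 and 11.21), complement, pericentral, acute phase and interferon-stimulated genes (8.29 and 9.46). Bile acid and mitochondrial ribosomal genes did not have both extremes there.

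**Figure D1:**
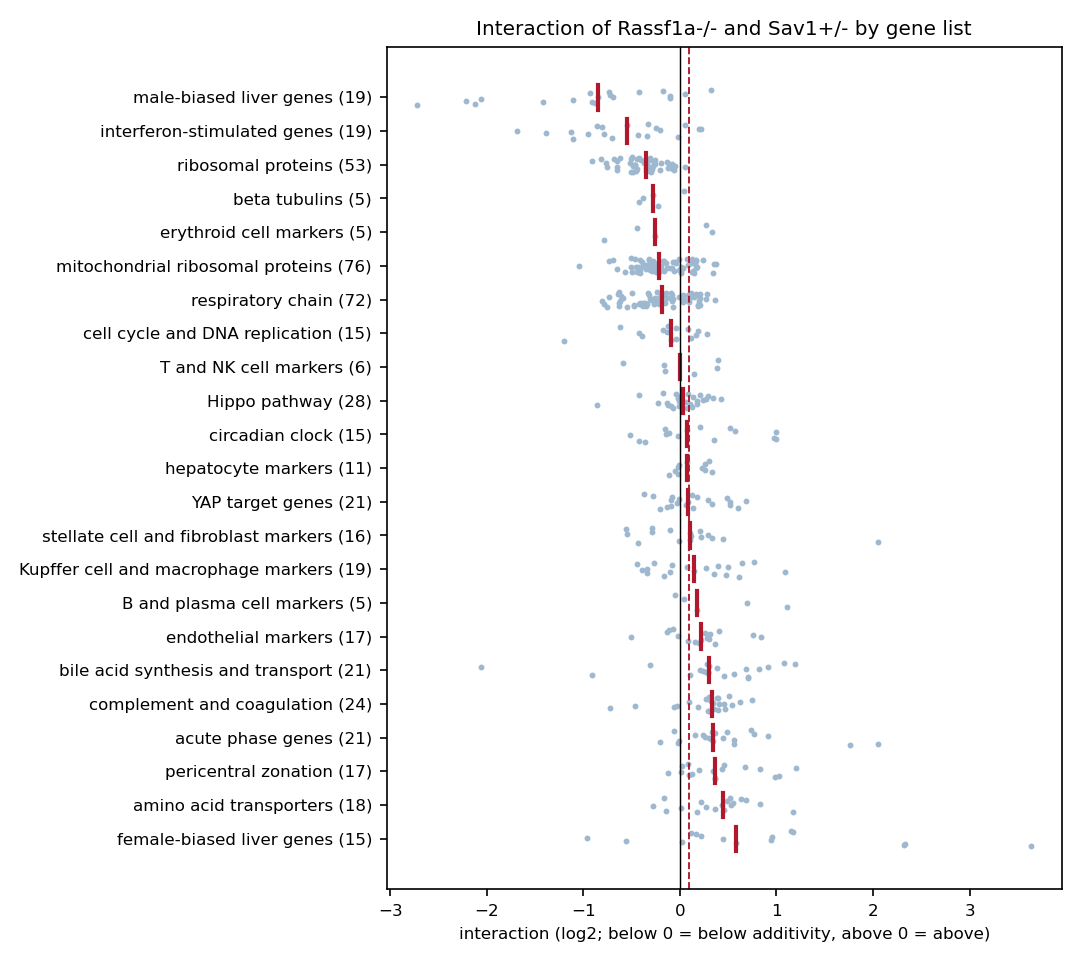
Interaction of each measured gene (points, log2 units, horizontal axis) in 23 described gene lists with at least 5 measured genes, with list size in brackets. Dark red bars mark list medians, from -0.85 for male-biased to 0.58 for female-biased liver genes, the black line marks additivity and the dashed line marks the median of all genes tested at 0.09.

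Cytosolic ribosomal proteins, the structural components of the translating ribosome, were the most uniform list below additivity. Of 53 measured members, 52 had an interaction below 0, with a median of -0.35, and 19 of them (35.8%) were below at an unadjusted p under 0.05, against 3.63% of all genes. The list holds 77 genes, of which 54 have a probe set naming 1 gene, and signal from near-identical ribosomal pseudogenes cannot be told apart from the genes themselves. Mean list levels were 11.77, 11.40, 11.75 and 11.71 in Rassf1a-/- Sav1+/- livers, 12, 12.21, 12.05 and 12.04 in Rassf1a-/- livers, 12.02, 11.60, 11.91 and 11.90 in Sav1+/- livers, and 11.84, 11.96, 11.84 and 11.93 in wild-type livers. The Rassf1a-/- Sav1+/- arrays all lay below the Rassf1a-/- arrays and below the wild-type arrays, while the Sav1+/- and wild-type arrays overlapped.

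The 2 Sav1 comparisons that make up this interaction share no array, whereas the comparisons of Rassf1a-/- Sav1+/- livers with Rassf1a-/- livers and of Rassf1a-/- livers with wild type share the Rassf1a-/- arrays. In Rassf1a-/- livers, loss of 1 Sav1 copy went with a median ribosomal protein difference of -0.41, and all 53 members had a lower mean. In livers with Rassf1a, the median difference between Sav1+/- and wild type was -0.04, with 32 members lower and 21 higher. All 4 Rassf1a-/- Sav1+/- arrays lay below all 4 Rassf1a-/- arrays for 40 of 53 ribosomal proteins (75.5%), against 5.96% of all genes. All 4 Sav1+/- arrays lay below all 4 wild-type arrays for 1 of 53 (1.89%), against 4.24% of all genes. Without overlap, Rassf1a-/- arrays were higher than wild-type arrays for 15 members (28.3%, against 6.55% of all genes), and Rassf1a-/- Sav1+/- arrays were lower than wild-type arrays for 24 (45.3%, against 4.49%).

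Rpl26, a protein of the large ribosomal subunit, had the lowest p of the list. It read 11.02, 10.66, 11.01 and 11.04 in Rassf1a-/- Sav1+/- livers, 11.63, 11.77, 11.52 and 11.58 in Rassf1a-/- livers, 11.37, 10.89, 11.25 and 11.23 in Sav1+/- livers, and 11.15, 11.11, 11.06 and 11.14 in wild-type livers. Every array of the combined genotype lay below every Rassf1a-/- and wild-type array. Its interaction was -0.76 ± 0.18 (SE, unadjusted p = 0.000669, adjusted p = 0.343 in limma). Proteins of the small subunit followed, with interactions of -0.77 for Rps3a1, -0.82 for Rps21 and -0.65 for Rps13.

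Over the 11 arrays of low Y-linked signal, the ribosomal median interaction was -0.21 and 1 of 53 members was below at an unadjusted p under 0.05. In those arrays, both remaining Rassf1a-/- Sav1+/- livers still lay below all 3 remaining Rassf1a-/- livers for 42 of 53 members (79.2%), against 9.36% of all genes. Without Sav1+/- replicates 1 and 2, the median was -0.42 and 32 members were below at the unadjusted threshold, and without Sav1+/- replicate 2 alone 38 were. Leaving out both keeps only Sav1+/- arrays of high Y-linked signal, against wild-type arrays that are all low.

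Subunits of the mitochondrial respiratory chain, the inner-membrane complexes that carry electrons and pump protons, lay below additivity to a smaller degree. This list was added after its values were seen. Of 72 measured members, 50 were below 0 with a median of -0.19, and 16 (22.2%) were below at an unadjusted p under 0.05, against 3.63% of all genes, with 1 above. The count below was 25 without Sav1+/- replicate 2 and 3 over the arrays of low Y-linked signal. Mean list levels were 11.57, 11.43, 11.65 and 11.59 in Rassf1a-/- Sav1+/- livers, 11.81, 11.96, 11.85 and 11.90 in Rassf1a-/- livers, 11.80, 11.49, 11.64 and 11.67 in Sav1+/- livers, and 11.76, 11.85, 11.67 and 11.81 in wild-type livers. The combined genotype lay below Rassf1a-/- and wild type with no overlap. Its arrays were below all Rassf1a-/- arrays for 44 of 72 members (61.1%, against 5.96% of all genes), and Sav1+/- arrays were below all wild-type arrays for 11 of 72 (15.3%, against 4.24%).

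Ndufb9, an accessory subunit of complex I, read 12.36, 12.05, 12.37 and 12.18 in Rassf1a-/- Sav1+/- livers, 12.94, 12.96, 12.82 and 12.98 in Rassf1a-/- livers, 12.69, 12.26, 12.64 and 12.53 in Sav1+/- livers, and 12.73, 12.56, 12.48 and 12.56 in wild-type livers. The combined genotype again lay under Rassf1a-/- and wild type without overlap, and it overlapped Sav1+/-. Its interaction was -0.63 ± 0.18 (SE, adjusted p = 0.343 in limma). Other members with low p were the complex III subunit Uqcr11 at -0.73 and the complex I subunits Ndufa1 at -0.76 and Ndufb2 at -0.79. Ndufb2 fell by 1.08 in Rassf1a-/- Sav1+/- livers against wild type (adjusted p = 0.00622 in limma). Over the 11 arrays of low Y-linked signal, the median of the list was -0.08.

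Mitochondrial ribosomal proteins, which translate the messages of the mitochondrial genome, had a median interaction of -0.22 over 76 measured members. At an unadjusted p under 0.05, 10 (13.2%) were below additivity, against 3.63% of all genes, and 1 above. The count below was 16 without Sav1+/- replicate 2, 5 without Rassf1a-/- Sav1+/- replicate 2, 6 without Rassf1a-/- replicate 2 and 4 over the arrays of low Y-linked signal. Mrps18c led with -0.73 ± 0.16 (SE, adjusted p = 0.316 in limma), followed by Mrpl33 at -0.65, Mrpl46 at -1.05 and Mrpl13 at -0.57. For 29 of 76 members (38.2%, against 5.96% of all genes) every array of the combined genotype lay below every Rassf1a-/- array. Over the 11 arrays of low Y-linked signal the median of the list was -0.01.

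**Figure D2:**
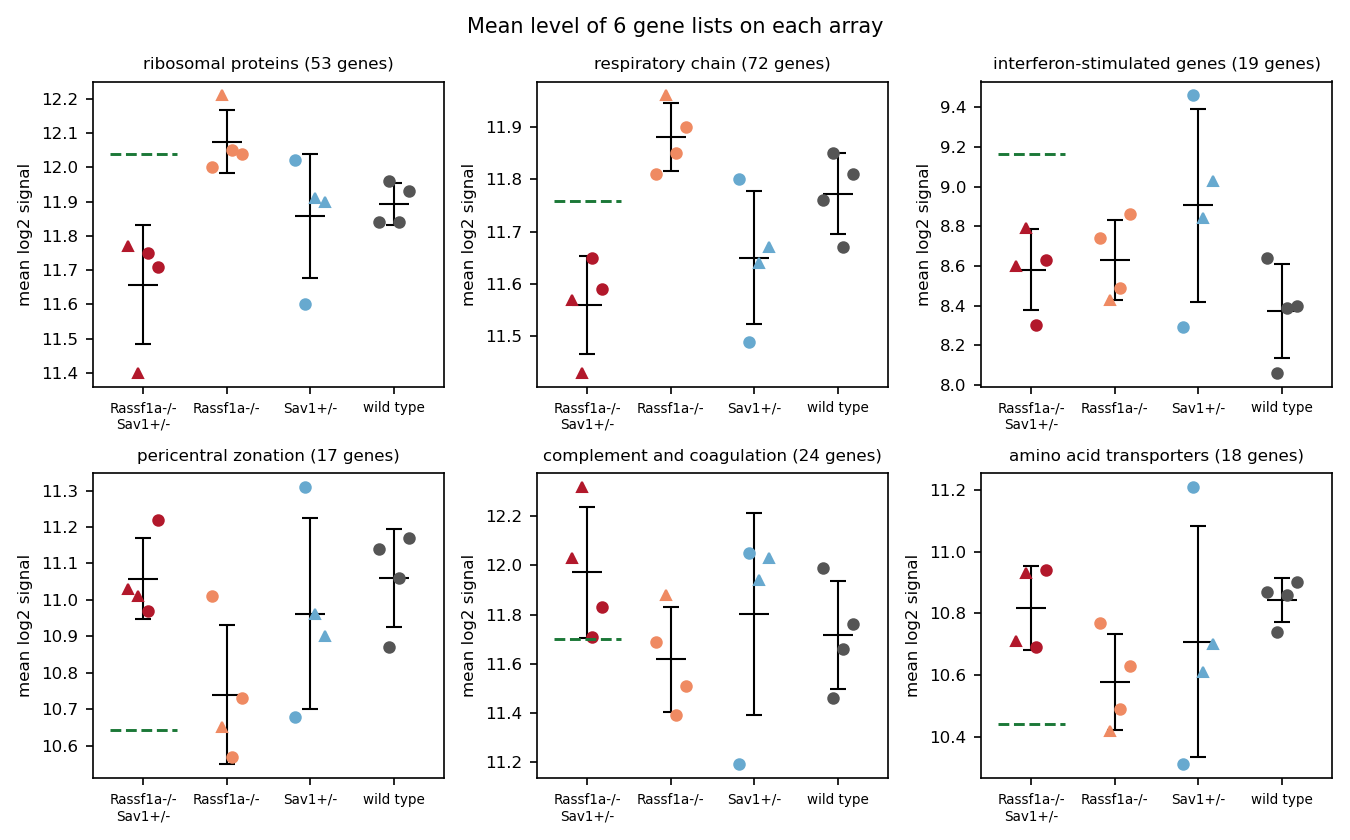
Mean log2 signal of 6 gene lists on each array (vertical axis) by genotype, with black bars for mean ± SD (n = 4), triangles for arrays of high Y-linked signal and green dashed lines for the level that additivity gives in the combined genotype. Ribosomal proteins averaged 11.66 in Rassf1a-/- Sav1+/- livers where additivity gives 12.04, and pericentral genes averaged 11.06 where additivity gives 10.64.

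Of the 15 genes with the lowest p below additivity, 3 that are in none of these lists follow, and their direction is fixed by that choice. Lsm1, a subunit of the ring complex that marks messages for decapping and decay, read 7.17, 7.18, 7.19 and 7.39 in Rassf1a-/- Sav1+/- livers, 7.95, 8.32, 7.80 and 7.66 in Rassf1a-/- livers, 7.77, 8.04, 7.88 and 8.13 in Sav1+/- livers, and 7.62, 7.65, 7.76 and 7.56 in wild-type livers. All 4 arrays of the combined genotype lay below the other 12 arrays, and its interaction was -1.0 ± 0.20 (SE, unadjusted p = 0.000104, adjusted p = 0.316 in limma). Those 4 arrays read at the level of the low-signal cut of the filter (7.16 to 7.44). Lsm1 fell by 0.72 in Rassf1a-/- Sav1+/- livers against Sav1+/- livers (adjusted p = 0.0219 in limma), a comparison in which 0.167% of all genes passed as lower.

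Slirp, which stabilises mitochondrial messages together with LRPPRC, read 9.27, 9.21, 9.53 and 9.57 in Rassf1a-/- Sav1+/- livers, 10.02, 10.27, 9.98 and 10.01 in Rassf1a-/- livers, 9.79, 9.84, 9.80 and 10.01 in Sav1+/- livers, and 9.69, 9.62, 9.46 and 9.88 in wild-type livers. The combined genotype lay below both single genotypes and overlapped wild type. Its interaction was -0.87 ± 0.18 (SE, adjusted p = 0.316 in limma). Higd1a, a respiratory chain assembly protein induced by hypoxia, read 8.11, 8.12, 7.80 and 8.19 in Rassf1a-/- Sav1+/- livers, 8.63, 9.32, 8.93 and 9.10 in Rassf1a-/- livers, 8.72, 8.43, 8.49 and 8.75 in Sav1+/- livers, and 8.34, 8.91, 8.33 and 8.49 in wild-type livers. All 4 arrays of the combined genotype were below the other 12, with an interaction of -1.02 ± 0.24 (SE, adjusted p = 0.334 in limma).

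The rest of the 15 genes with the lowest p below additivity had interactions from -2.0 for Zfp931 to -0.63 for Ciao2a. Ciao2a works in cytosolic iron-sulfur protein assembly, Eloc (-0.70) is elongin C, Esco1 (-0.90) is a cohesin acetyltransferase, and Slc35d2 (-0.86) carries nucleotide sugars into the Golgi. Sntg2 (-0.90), Erh (-0.71), Glcci1 (-0.93) and Tatdn1 (-0.92) complete the group besides Rpl26, Mrps18c and the interferon-stimulated gene described next. Sntg2, a syntrophin, rose by 0.76 in Rassf1a-/- livers against wild type (adjusted p = 0.00678 in limma), where 0.433% of all genes passed as higher. Its difference between Rassf1a-/- Sav1+/- and wild-type livers was 0.23 (adjusted p = 0.481).

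Interferon-stimulated genes, the antiviral effectors switched on by interferon, were highest in Sav1+/- livers and lay below additivity in the combined genotype. Of 30 listed genes 19 were measured, 16 of them had an interaction below 0, and the median was -0.55. At an unadjusted p under 0.05, 6 members (31.6%) were below and 0 above, against 3.63% and 5.76% of all genes. Mean list levels were 8.60, 8.79, 8.30 and 8.63 in Rassf1a-/- Sav1+/- livers, 8.74, 8.43, 8.49 and 8.86 in Rassf1a-/- livers, 8.29, 9.46, 8.84 and 9.03 in Sav1+/- livers, and 8.64, 8.06, 8.39 and 8.40 in wild-type livers. The genotypes overlapped, and the spread was widest among the Sav1+/- arrays, which hold both the second lowest and the highest value of the list.

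The promoters of some members carry the core of the interferon-stimulated response element and are shown because the list moved together on the Sav1+/- arrays. The core was searched as GAAANNGAAA on both strands, overlaps allowed, in the 250 bases before the gene start. It was found for 7 of the 14 measured members with a promoter in the RefSeq table (50%), against 319 of 10421 tested genes (3.06%) and 936 of all 27025 genes of the table (3.46%). A match is a description of the letters and does not show binding. The list was chosen as interferon-stimulated, so a high share was likely beforehand and does not bear on additivity. Ifi27l2a, Usp18 and Rtp4, named below for low p, had no promoter sequence to search. The sequences are from RefSeq (GRCm38.p6), 5′ to 3′ on the strand of the gene and ending at the base before its start, with motif bases in capitals. Ifit1 (chr19:34640639-34640888, plus strand) and Ifit3 (chr19:34583279-34583528, plus strand) hold 2 matches each, both on the reverse strand, and Cmpk2 (chr12:26468965-26469214, plus strand) holds 0 in this window.
Ifit1: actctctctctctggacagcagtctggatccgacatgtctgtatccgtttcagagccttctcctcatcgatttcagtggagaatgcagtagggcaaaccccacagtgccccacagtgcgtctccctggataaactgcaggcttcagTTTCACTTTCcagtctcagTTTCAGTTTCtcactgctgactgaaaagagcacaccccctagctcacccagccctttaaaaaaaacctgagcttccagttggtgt
Ifit3: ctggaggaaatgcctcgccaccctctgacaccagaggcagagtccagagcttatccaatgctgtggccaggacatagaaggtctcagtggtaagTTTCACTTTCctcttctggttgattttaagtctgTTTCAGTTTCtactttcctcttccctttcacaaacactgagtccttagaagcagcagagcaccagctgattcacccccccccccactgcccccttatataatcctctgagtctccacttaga
Cmpk2: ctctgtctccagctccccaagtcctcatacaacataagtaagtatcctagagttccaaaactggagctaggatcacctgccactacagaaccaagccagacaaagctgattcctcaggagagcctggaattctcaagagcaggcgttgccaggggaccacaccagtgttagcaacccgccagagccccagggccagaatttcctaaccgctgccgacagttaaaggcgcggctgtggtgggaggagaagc

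Ifi27l2a, an interferon-induced mitochondrial membrane protein, had the lowest p of the list. It read 7.25, 6.10, 6.97 and 6.91 in Rassf1a-/- Sav1+/- livers, 7.31, 6.87, 7.18 and 7.50 in Rassf1a-/- livers, 8.04, 9.16, 8.04 and 8.29 in Sav1+/- livers, and 7.52, 6.90, 7.07 and 6.96 in wild-type livers. All Sav1+/- arrays lay above the other 12, and the remaining genotypes overlapped. Those 12 arrays read near or under the low-signal cut of the filter (7.16 to 7.44). The gene thus passed the filter mainly through its Sav1+/- arrays. Its interaction was -1.69 ± 0.37 (SE, 3.22-fold, unadjusted p = 0.00029, adjusted p = 0.316 in limma). Ifi27l2a fell by 1.58 in Rassf1a-/- Sav1+/- livers against Sav1+/- livers (adjusted p = 0.00867 in limma), and its difference between Rassf1a-/- and wild type was 0.11 (adjusted p = 0.878).

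Usp18, a protease that removes ISG15 and dampens interferon signalling, read 7.66, 8.30, 7.13 and 8.14 in Rassf1a-/- Sav1+/- livers, 8.36, 7.80, 8.12 and 8.70 in Rassf1a-/- livers, 7.92, 9.53, 8.96 and 9.10 in Sav1+/- livers, and 8.24, 7.45, 8.15 and 7.86 in wild-type livers. Sav1+/- replicate 1 stood among the other genotypes, and the other 3 Sav1+/- arrays were above them all. Its interaction was -1.39 ± 0.44 (SE, adjusted p = 0.387 in limma). The receptor-transporting protein Rtp4 had -0.81, and the mitochondrial nucleotide kinase Cmpk2 had -1.13.

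Ifit1, which binds foreign RNA caps, was taken up with its promoter after its values were seen. It read 8.68, 9.55, 8.45 and 8.80 in Rassf1a-/- Sav1+/- livers, 9.12, 8.55, 9.06 and 9.02 in Rassf1a-/- livers, 8.39, 10.07, 9.68 and 9.59 in Sav1+/- livers, and 8.90, 7.37, 8.71 and 8.58 in wild-type livers. Again Sav1+/- replicate 1 was the low one among the Sav1+/- arrays. Its interaction was -1.11 ± 0.50 (SE, adjusted p = 0.503 in limma), and that of Ifit3, a relative chosen in the same way, was -0.70 ± 0.34 (SE, adjusted p = 0.543).

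The list median moved with the Sav1+/- arrays: it was -0.81 without Sav1+/- replicate 1, -0.36 without Sav1+/- replicate 2 and -0.65 without both. Members below at the unadjusted threshold numbered 12 without replicate 1 and 4 without replicate 2. Over the 11 arrays of low Y-linked signal it was -0.69, with 5 members below at the unadjusted threshold. Without overlap, Sav1+/- arrays were above wild-type arrays for 1 of 19 members (5.26%, against 0.441% of all genes) and Rassf1a-/- Sav1+/- arrays were below Sav1+/- arrays for 2 (10.5%, against 1.42%). Kupffer cell and macrophage markers also varied among Sav1+/- arrays, with mean levels of 9.25, 10.57, 9.45 and 9.72. Sav1+/- replicate 2 was highest for both lists, and the part of these cells in the interferon result was not tested.

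**Figure D3:**
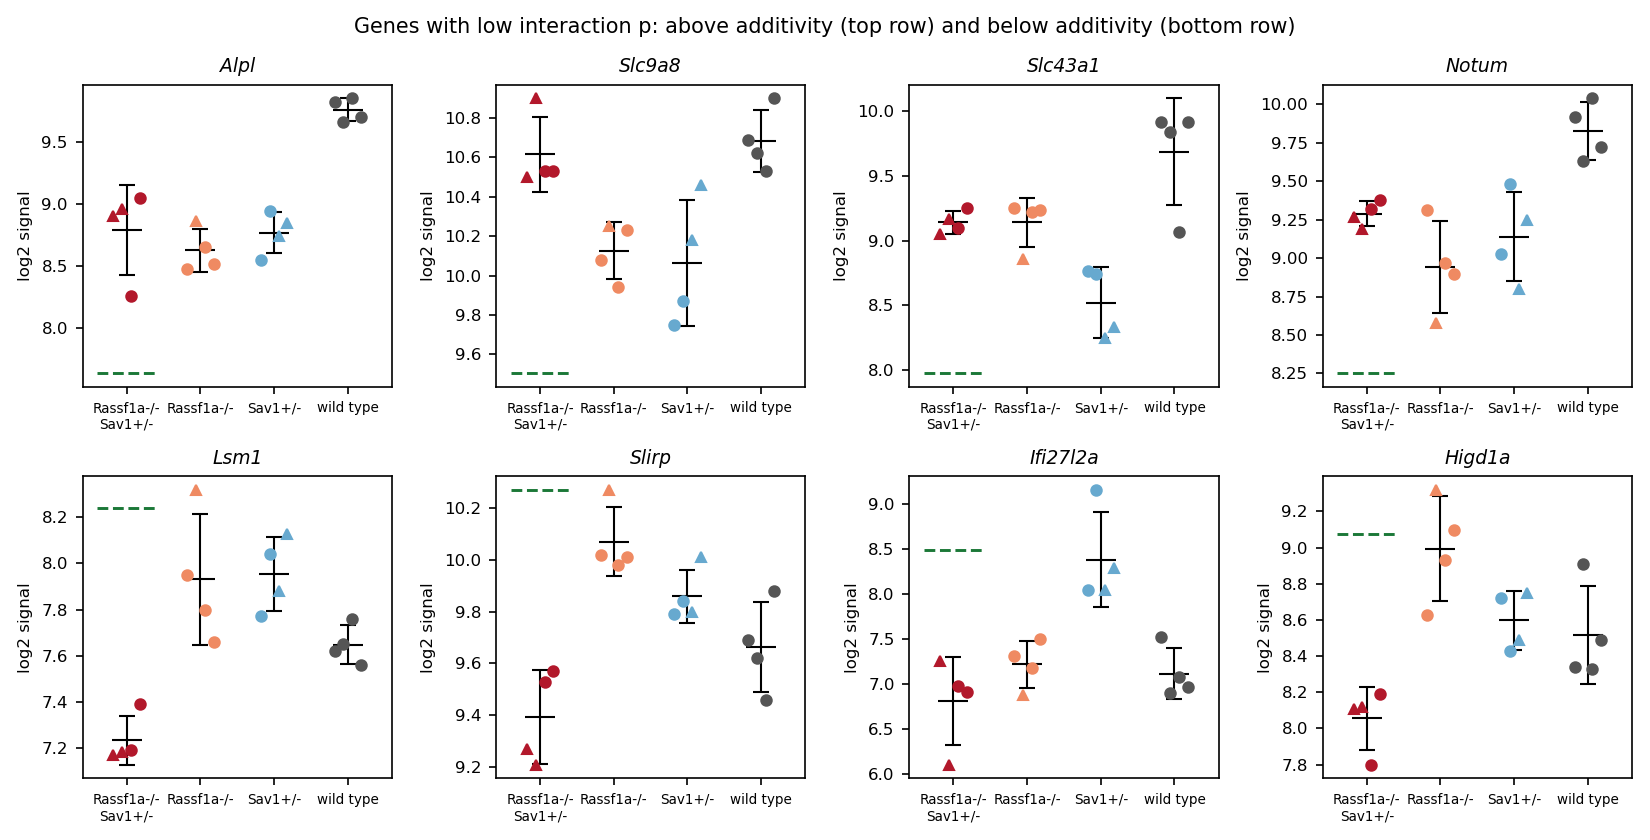
Log2 signal of 4 genes above additivity (top row) and 4 below (bottom row) on each array by genotype, with black bars for mean ± SD (n = 4), triangles for arrays of high Y-linked signal and green dashed lines for the additive level. Alpl averaged 8.79 in Rassf1a-/- Sav1+/- livers where additivity gives 7.64, and Ifi27l2a averaged 6.81 where additivity gives 8.49.

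Among the 15 genes with the lowest p above additivity, single-genotype means lay under wild type, an arrangement that choosing them by this value favours. Alpl, the tissue-nonspecific alkaline phosphatase of the bile canaliculus, read 8.90, 8.96, 8.26 and 9.05 in Rassf1a-/- Sav1+/- livers, 8.48, 8.86, 8.65 and 8.52 in Rassf1a-/- livers, 8.55, 8.94, 8.74 and 8.85 in Sav1+/- livers, and 9.82, 9.66, 9.85 and 9.70 in wild-type livers. All 12 arrays of altered genotypes lay below the 4 wild-type arrays and overlapped each other. Alpl fell by 1.13 in Rassf1a-/- livers (SE 0.16, adjusted p = 0.00144 in limma) and by 0.97 in Rassf1a-/- Sav1+/- livers (adjusted p = 0.00658), and its difference of -0.99 in Sav1+/- livers did not pass (adjusted p = 0.0748). As lower, 0.266% of all genes passed in Rassf1a-/- livers and 0.487% in the combined genotype. Its interaction was 1.15 ± 0.23 (SE, 2.22-fold, unadjusted p = 0.000102, adjusted p = 0.316), and without Rassf1a-/- Sav1+/- replicate 3 it was 1.32 with an adjusted p of 0.0338.

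Slc9a8, a sodium-proton exchanger of the Golgi and apical membrane, read 10.50, 10.90, 10.53 and 10.53 in Rassf1a-/- Sav1+/- livers, 10.08, 10.25, 9.94 and 10.23 in Rassf1a-/- livers, 9.75, 9.87, 10.18 and 10.46 in Sav1+/- livers, and 10.69, 10.62, 10.53 and 10.90 in wild-type livers. The combined genotype overlapped wild type and lay above both single genotypes. Its interaction was 1.11 ± 0.22 (SE, adjusted p = 0.316 in limma). Ggcx, the carboxylase that activates vitamin K dependent clotting factors, had an interaction of 0.82 ± 0.20 (SE, adjusted p = 0.343) and rose by 0.65 in Rassf1a-/- Sav1+/- livers against Sav1+/- livers (adjusted p = 0.0421), a comparison in which 0.669% of all genes passed as higher.

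The others among the 15 genes with the lowest p above additivity had interactions from 0.70 for Abhd1 to 1.99 for an immunoglobulin kappa variable segment. They included the rhomboid-like Rhbdd2 (0.97), the GPI transamidase subunit Pigs (0.93), the phosphatidic acid synthesis enzyme Agpat1 (0.82), the laminin receptor Itga7 (0.87), the endothelial matrix protein Mmrn2 (0.77), the lysosomal protease Ctsa (0.74), the tight junction protein Cldn3 (0.75) and Nxpe2 (0.99). Agpat1 fell by 0.74 (adjusted p = 0.00782) and Rhbdd2 fell by 0.73 (adjusted p = 0.0199, limma) in Rassf1a-/- livers against wild type. Their differences in Rassf1a-/- Sav1+/- livers, -0.31 and -0.58 against wild type, did not pass.

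Genes of the pericentral zone, the rim of hepatocytes around the central vein where Wnt signalling and glutamine synthesis are strong, lay above additivity. Of 17 measured members 16 had an interaction above 0, with a median of 0.36, and 6 (35.3%) were above at an unadjusted p under 0.05, against 5.76% of all genes. The count was 3 without Rassf1a-/- Sav1+/- replicate 2, Rassf1a-/- replicate 3, Sav1+/- replicate 1 or wild-type replicate 4, and 2 over the arrays of low Y-linked signal. Mean list levels were 11.03, 11.01, 10.97 and 11.22 in Rassf1a-/- Sav1+/- livers, 11.01, 10.65, 10.57 and 10.73 in Rassf1a-/- livers, 10.68, 11.31, 10.96 and 10.90 in Sav1+/- livers, and 11.14, 10.87, 11.06 and 11.17 in wild-type livers. Of the 4 Rassf1a-/- arrays 3 lay below every wild-type array and every array of the combined genotype, and replicate 1 overlapped them. The median Sav1 difference was 0.26 in Rassf1a-/- livers and -0.10 in livers with Rassf1a.

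Notum, a secreted enzyme that inactivates Wnt ligands and a Wnt target around the central vein, read 9.27, 9.19, 9.32 and 9.38 in Rassf1a-/- Sav1+/- livers, 9.31, 8.58, 8.97 and 8.90 in Rassf1a-/- livers, 9.03, 9.48, 8.80 and 9.25 in Sav1+/- livers, and 9.92, 9.63, 10.04 and 9.72 in wild-type livers. Every altered array lay below every wild-type array. Notum fell by 0.88 in Rassf1a-/- livers (adjusted p = 0.0154 in limma), and its interaction was 1.03 ± 0.24 (SE, adjusted p = 0.334). The vitamin C synthesis enzyme Gulo had an interaction of 0.67, the glutamate transporter Slc1a2 had 0.83, and the sterol hydroxylase Cyp27a1 had 0.46. Slc1a2 fell by 0.90 in Rassf1a-/- livers against wild type (adjusted p = 0.0352).

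**Figure D4:**
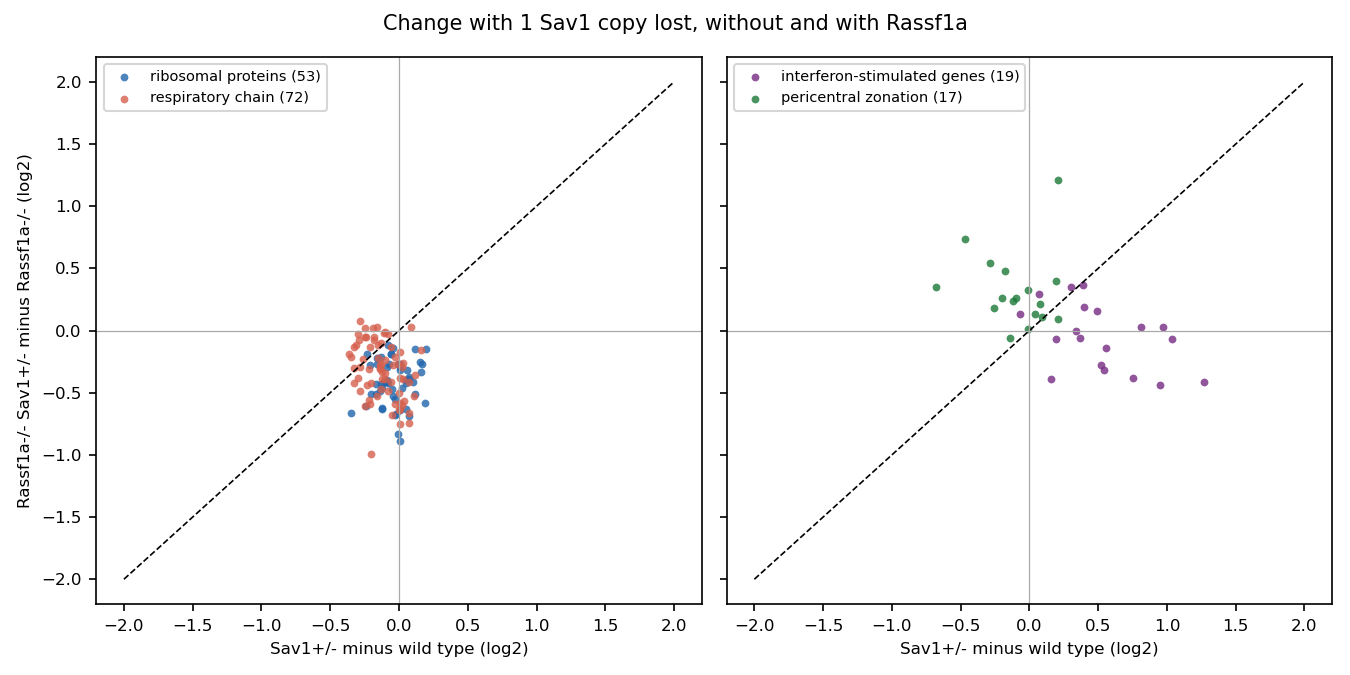
Difference with loss of 1 Sav1 copy for each measured gene of 4 lists, as Rassf1a-/- Sav1+/- minus Rassf1a-/- (vertical axis, log2) against Sav1+/- minus wild type (horizontal axis, log2), with the dashed diagonal for additivity. Of 53 ribosomal protein points 52 lie under the diagonal, at list medians of -0.41 and -0.04. Of 17 pericentral points 16 lie above it, at list medians of 0.26 and -0.10.

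Amino acid transporters, the membrane carriers that supply hepatocytes with amino acids, had a median interaction of 0.45, with 15 of 18 measured members above 0 and 5 (27.8%) above at an unadjusted p under 0.05, against 62.4% and 5.76% of all genes. The count at low p was 11 without Sav1+/- replicate 2 and 2 over the arrays of low Y-linked signal. Slc43a1, a carrier of branched-chain and other large neutral amino acids, read 9.05, 9.17, 9.10 and 9.25 in Rassf1a-/- Sav1+/- livers, 9.25, 8.86, 9.22 and 9.24 in Rassf1a-/- livers, 8.77, 8.74, 8.25 and 8.33 in Sav1+/- livers, and 9.92, 9.84, 9.07 and 9.92 in wild-type livers. Sav1+/- arrays were the lowest, 3 of 4 wild-type arrays were the highest, and the combined genotype sat with Rassf1a-/- in between. Its interaction was 1.17 ± 0.26 (SE, adjusted p = 0.316 in limma). Slc6a13, a GABA and taurine transporter, had 0.63 and the glutamine transporter Slc38a3 had 0.46. Slc1a2 belongs to this list and to the pericentral one.

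Secretory functions of the hepatocyte also lay above additivity, with fewer members at low p. Complement and coagulation factors had a median interaction of 0.33, with 20 of 24 measured members above 0 and 3 (12.5%) at an unadjusted p under 0.05, against 62.4% and 5.76% of all genes. F12, coagulation factor XII, led with 0.75 ± 0.20 (SE, adjusted p = 0.343 in limma), followed by coagulation factor VII gene F7 at 0.62, heparin cofactor II gene Serpind1 at 0.51 and the prothrombin gene F2 at 0.41. For 7 of 24 members (29.2%) all arrays of the combined genotype lay above all Rassf1a-/- arrays, against 3.85% of all genes. In the combined genotype the list mean was 12.03 and 12.32 on arrays of high Y-linked signal and 11.71 and 11.83 on the others. In Rassf1a-/- livers it was 11.88 on the high array and 11.39 to 11.69 on the others. Sav1+/- arrays were mixed, at 11.94 and 12.03 on high and 11.19 and 12.05 on low ones. The part of that signal in the count of 7 was not tested. The complement count was 11 without Sav1+/- replicate 2, 5 without Rassf1a-/- Sav1+/- replicate 1 or wild-type replicate 2, and 1 over the arrays of low Y-linked signal. Acute phase genes had a median of 0.34, with 17 of 21 above 0, against 62.4% of all genes. At an unadjusted p under 0.05, 1 (4.76%) was above, a share below the 5.76% of all genes. That count hung on single arrays, from 0 to 6 over the alternative settings: it was 6 without Sav1+/- replicate 2, 5 without Rassf1a-/- replicate 1, 4 without wild-type replicate 2, 2 without Rassf1a-/- Sav1+/- replicate 1, and 0 without any 1 of 8 other arrays or over the arrays of low Y-linked signal. The member was Itih3, an inter-alpha-trypsin inhibitor heavy chain, at 0.77.

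Bile acid synthesis and transport had a median interaction of 0.30, with 18 of 21 measured members above 0 and 5 (23.8%) above at an unadjusted p under 0.05, against 62.4% and 5.76% of all genes. The count at low p was 3 without Sav1+/- replicate 1 or wild-type replicate 2, and 4 over the arrays of low Y-linked signal. The bile acid ligase Slc27a5 had 0.56 ± 0.18 (SE, adjusted p = 0.387 in limma), and the main sinusoidal bile acid uptake transporter Slc10a1 had 0.38. The basolateral exporters Slc51b and Abcc3 had 1.08 and 0.68. Slc51b averaged 6.79 ± 0.63 in Rassf1a-/- Sav1+/- livers, 7.23 ± 0.61 in Rassf1a-/- livers, 6.58 ± 0.24 in Sav1+/- livers and 8.10 ± 0.33 in wild-type livers (log2 units, SD, n = 4 each). Its means in the altered genotypes lay near or under the low-signal cut of the filter (7.16 to 7.44). Additivity gives 5.71 for Slc51b, below that cut, and the part of a signal floor in its interaction was not tested. For 6 of 21 members (28.6%) all Rassf1a-/- arrays lay below all wild-type arrays, against 4.32% of all genes.

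Genes called for an averaged Rassf1a difference were also set against additivity. The average of the Rassf1a difference over both Sav1 genotypes uses another combination of the 4 means than the interaction, and in it 231 genes (1.76%) passed as higher and 62 (0.471%) as lower. The 231 had a median interaction of -0.01, with 111 above 0 and 120 below, and 18 (7.79%) were above and 10 (4.33%) below at an unadjusted p under 0.05, against 5.76% and 3.63% of all genes. The 62 had a median of 0.28, with 46 above 0 and 16 below, and 11 of them (17.7%) were above and 3 (4.84%) below at that threshold. A positive interaction on a lower gene means that its fall with Rassf1a loss was smaller in Sav1+/- livers by value. The part of a signal floor in these values was not tested.

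Core clock genes, which oscillate over the day, were among the genes with the lowest averaged p. Arntl, the BMAL1 activator, was higher by 3.19 on average, with an interaction of -0.36 (95% interval -1.37 to 0.66). The deubiquitinase Usp2 was lower, with a log2 difference of -3.44 and an interaction of 0.91 (-0.08 to 1.90). The repressor genes Per3 and Per2 had interactions of 0.97 (0.01 to 1.94) and 1.0 (0.18 to 1.83). Additivity gives 7.21 for Per2, 6.7 for Per3, 7.03 for Usp2 and 5.64 for the clock repressor Ciart named below. These levels lie near or under the low-signal cut of the filter (7.16 to 7.44). The part of a signal floor in their interactions was not tested. Per2 read 8.37, 8.01, 7.59 and 8.88 in Rassf1a-/- Sav1+/- livers, 7.19, 8.26, 7.21 and 8.16 in Rassf1a-/- livers, 9.26, 9.23, 9.43 and 9.78 in Sav1+/- livers, and 9.97, 9.63, 9.85 and 10.25 in wild-type livers. All 8 arrays without Rassf1a lay below the 8 with it, and both Rassf1a-/- genotypes overlapped. Over the 15 measured clock genes the median interaction was 0.07. At an unadjusted p under 0.05, 2 of them (13.3%) were above, against 5.76% of all genes. The sources used here do not state the time of sampling.

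Ndrg1, a stress-response gene, rose by 1.35 on average with Rassf1a loss (adjusted p = 3e-06 in limma). It read 10.40, 10.44, 10.56 and 10.26 in Rassf1a-/- Sav1+/- livers, 10.84, 10.52, 10.16 and 10.37 in Rassf1a-/- livers, 9.51, 9.64, 9.23 and 9.14 in Sav1+/- livers, and 8.64, 8.92, 8.78 and 8.88 in wild-type livers. Both Rassf1a-/- genotypes overlapped, and every Sav1+/- array lay above every wild-type array. Its interaction was -0.63 (95% interval -1.09 to -0.17, adjusted p = 0.414). The other genes named by the averaged test were the aromatic amino acid decarboxylase Ddc (-0.17), the clock repressor Ciart (0.52), Denn2b (-0.16), the ubiquitin ligase Dtx4 (-0.30), the mitochondrial unfoldase Clpx (-0.26) and the choline kinase Chka (-0.05), all with 95% intervals that include 0.

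Sav1 itself was additive within its error, with an interaction of -0.07 (95% interval -0.59 to 0.45). Averaged over both Rassf1a genotypes, 0 genes (0%) passed as higher with the loss of 1 Sav1 copy and 3 (0.0228%) as lower, namely Sav1, the Wnt ligand gene Wnt5b and the autophagy protease gene Atg4d. Wnt5b had an interaction of 0.34 (-0.23 to 0.90) and Atg4d had -0.06 (-0.43 to 0.30). Mcrip2, which just missed the averaged threshold, had 0.05 (-0.39 to 0.50).

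Lrrc51, a gene of unclear function in liver, was the exception among the 5 genes with the lowest averaged Sav1 p. It read 7.03, 6.80, 7.17 and 7.57 in Rassf1a-/- Sav1+/- livers, 8.15, 8.20, 8.32 and 8.26 in Rassf1a-/- livers, 7.88, 7.64, 7.4 and 7.39 in Sav1+/- livers, and 7.88, 7.94, 7.65 and 7.81 in wild-type livers. It fell by 1.09 in Rassf1a-/- Sav1+/- livers against Rassf1a-/- livers (adjusted p = 0.0329 in limma) and was the only gene to pass in that comparison (0.0076%). Its difference between Sav1+/- and wild-type livers was -0.24 (adjusted p = 0.691), and the interaction, which tests the contrast of the 2 differences, was -0.85 ± 0.22 (SE, adjusted p = 0.343). Its Rassf1a-/- Sav1+/- arrays lay near or under the low-signal cut of the filter (7.16 to 7.44).

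**Figure D5:**
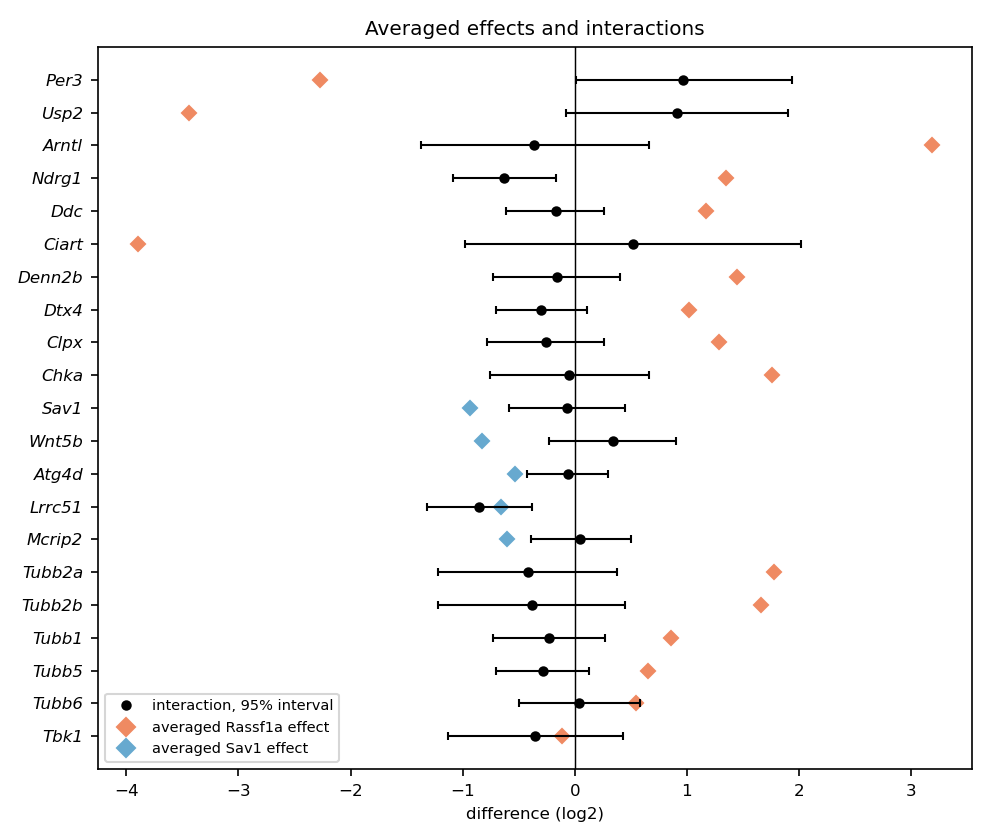
Interactions with 95% intervals (black points and bars) and averaged Rassf1a or Sav1 differences (diamonds) in log2 units for 10 genes with the lowest averaged Rassf1a p, 5 with the lowest averaged Sav1 p, the beta tubulins and Tbk1. Arntl has an averaged difference of 3.19 and an interaction of -0.36, and the Lrrc51 interval lies wholly below 0.

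The beta tubulins and Tbk1 named in the title of the study showed no departure that passed. Tubb2a, a beta subunit of microtubules, read 10.08, 10.91, 10.92 and 10.34 in Rassf1a-/- Sav1+/- livers, 11, 10.70, 10.68 and 11.18 in Rassf1a-/- livers, 8.89, 8.94, 9.0 and 9.15 in Sav1+/- livers, and 8.15, 9.79, 8.96 and 8.70 in wild-type livers. Arrays without Rassf1a lay above all others whatever the Sav1 genotype, and its interaction was -0.42 (95% interval -1.22 to 0.38). The relatives Tubb2b (-0.38), Tubb5 (-0.28), Tubb1 (-0.23) and Tubb6 (0.04) also had intervals that include 0, and Tubb6 changed sign in 9 of 28 alternative settings. Tbk1, a kinase of innate immune signalling, had an interaction of -0.35 (-1.13 to 0.43). For all 5 tubulins every Rassf1a-/- Sav1+/- array lay above every Sav1+/- array (100%, against 5.03% of all genes), and for 4 every Rassf1a-/- array lay above every wild-type array (80%, against 6.55%).

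Hippo pathway genes and YAP targets were near the median of all genes. The 28 measured pathway genes had a median interaction of 0.03, with 15 above 0 and 13 below, and 1 (3.57%) below at an unadjusted p under 0.05, near the 3.63% of all genes. That gene was Nf2, the upstream membrane-linked activator of the cascade, which averaged 7.59 in Rassf1a-/- Sav1+/- livers, 8.54 in Rassf1a-/- livers, 7.93 in Sav1+/- livers and 8.03 in wild-type livers (interaction -0.86 ± 0.38, SE, adjusted p = 0.499 in limma). The 21 measured YAP targets had a median of 0.08. The growth factor gene Tgfb2, at 0.52, was the only member above at the unadjusted threshold (4.76%, against 5.76% of all genes). The Hippo median changed sign in 6 and the YAP median in 5 of 28 alternative settings. The 15 measured cell cycle genes had a median of -0.09, and the DNA topoisomerase gene Top2a had -1.20 ± 0.55 (SE, adjusted p = 0.519).

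Markers of other liver cells showed wide spreads and no called gene. Median interactions were 0.15 for 19 Kupffer cell and macrophage markers, 0.22 for 17 endothelial, 0.10 for 16 stellate cell and fibroblast, 0.18 for 5 B and plasma cell, 0.00 for 6 T and NK cell and -0.26 for 5 erythroid markers, against 0.09 for all genes. Against 5.76% and 3.63% of all genes, the stellate cell list had 1 of 16 (6.25%) above and 1 (6.25%) below at an unadjusted p under 0.05. These were the smooth muscle actin gene Acta2 at 2.05 ± 0.72 (SE, adjusted p = 0.414 in limma) and the pericyte gene Rgs5 at -0.55. The endothelial list also had 1 of 17 (5.88%) each way, Vwf at 0.76 and Clec4g at -0.51. Over the 11 arrays of low Y-linked signal the Kupffer and B cell medians were -0.42 and -0.44, so their direction depended on which arrays were used.

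Sex-biased liver genes differed far more between arrays of high and low Y-linked signal than between genotypes. Mean levels of the male-biased genes were 11.76 to 11.93 on the 5 arrays of high Y-linked signal and 8.15 to 8.75 on the other 11, and those of the female-biased genes were 5.84 to 6.44 and 10.54 to 11.55. The 19 male-biased genes had a median of -0.85 and the 15 female-biased genes one of 0.58, with 0 members at an unadjusted p under 0.05 in either direction. Cyp3a16, a female-biased cytochrome P450, read 2.47, 3.85, 11.60 and 12.09 in Rassf1a-/- Sav1+/- livers, 11.52, 1.63, 12.03 and 11.21 in Rassf1a-/- livers, 12, 12.45, 3.61 and 2.82 in Sav1+/- livers, and 11.50, 11.44, 11.92 and 11.67 in wild-type livers. All 5 low values fell on the 5 arrays of high Y-linked signal. When the fit also held the mean Y-linked level of each array, the male-biased median turned to 0.26. The female-biased median changed sign in 5 of 28 alternative settings.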

How the data were processed

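Liver RNA was hybridised to Affymetrix whole-transcript gene arrays, per the labels' protocols. The deposited values are log2 signals, for which the submitters' processing notes name Affymetrix Expression Console. The sources used here do not state its version, background correction or normalization. Array medians ran from 7.20 to 7.51, and precision is limited by having 16 arrays.

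Gene names came from the platform annotation. Probe sets with several genes (1621) or none (12146) were left out, and 21698 of the other 21789 matched RefSeq. Probe sets below the 40th percentile of an array (7.16 to 7.44) in more than 12 arrays were dropped, and the one with the highest mean stood for its gene. Of the genes kept, 1 reached that level in only 1 genotype. limma 3.58.1 (R 4.3.3) fitted 4 genotype means with lmFit and eBayes on 12 residual degrees of freedom. Tests were two-sided with Benjamini-Hochberg adjustment over 13152 genes, and calls were made at an adjusted p under 0.05. The fit was tested on simulated data.

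Named genes are up to 15 with the lowest p in each direction, up to 4 per described list, 10 and 5 with the lowest averaged Rassf1a and Sav1 p, and Rassf1, Sav1, Tbk1 and the beta tubulins. Predicted gene models were passed over. Described lists are the 6 with the largest and 6 with the smallest medians, with clock, Hippo, YAP, cell cycle and cell type lists. No set test was run. Genes, lists and tests were chosen with earlier results of these data known. Alternatives changed the filter, the probe set choice, the scaling, the weights, the variance model, the additive scale and the arrays used. Replicates are numbered in the order of the deposited samples. The labels do not say that they are different animals, so the p-values cover the spread between these samples and no more.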

Additional observations from a re-analysis of the deposited data

Results flagged for a closer look

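Single arrays that stood far from the other 3 of their genotype, by Dixon's gap rule at its 95% level for 4 samples, were found for 37 of 664 groups checked, and chance flags about 5% of groups. Among genes below additivity, the distant arrays were Lsm1 at 7.39 in Rassf1a-/- Sav1+/- replicate 4, Esco1 at 8.94 in replicate 4, Glcci1 at 9.67 and Rpl26 at 10.66 in replicate 2 of that genotype, and Slirp at 10.27 in Rassf1a-/- replicate 2. Mrpl33 read 10.88 and Cmpk2 6.66 in Sav1+/- replicate 1, while Rtp4 read 9.06 in wild-type replicate 1 and Ndufb2 11.27 in wild-type replicate 2. Among genes above additivity, Slc9a8 read 10.90 in Rassf1a-/- Sav1+/- replicate 2, Slc43a1 read 8.86 in Rassf1a-/- replicate 2 and 9.07 in wild-type replicate 3, and Abcc3 read 11.60 in Rassf1a-/- replicate 1. Slc27a5 read 13.11 in Sav1+/- replicate 2 and Slc10a1 13.35 in Sav1+/- replicate 1.

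Rassf1a-/- replicate 2, the only array of its genotype with high Y-linked signal, stood apart for Cyp3a44 at 4.04, Cyp39a1 at 8.29, Cyp17a1 at 9.50 and Cyp3a16 at 1.63, for the mean of male-biased genes at 11.76 and for that of female-biased genes at 6.23. It also stood apart for the erythroid genes Alas2 at 12.54 and Car2 at 7.75. Cyp3a44 read 3.46 in Sav1+/- replicate 4, another array of high Y-linked signal. Other cell markers with a distant array were C1qc at 11.82, Jchain at 10.37 and Ighm at 11.18, all in Rassf1a-/- Sav1+/- replicate 1, Apoh at 13.30 in replicate 4 of that genotype, Cd24a at 9.01 in Rassf1a-/- replicate 4, Col1a1 at 9.21 in wild-type replicate 2 and Car1 at 8.76 in wild-type replicate 1. Atg4d read 9.40 in Rassf1a-/- Sav1+/- replicate 4 and Tubb2b 6.66 in Sav1+/- replicate 1. Among list means, cholangiocyte markers were at 7.56 in Rassf1a-/- Sav1+/- replicate 3, beta tubulins at 10.08 in Rassf1a-/- replicate 4, and in Sav1+/- replicate 1 complement and coagulation genes were at 11.19 and hepatocyte markers at 13.08.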

How the results depend on the processing

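Of 28 alternative settings, 26 gave 0 called interactions. Without Rassf1a-/- Sav1+/- replicate 3 there was 1 (Alpl, 1.32, adjusted p = 0.0338 in limma), and leaving out single arrays gave from 0 to 1. Without both low-weight Sav1+/- arrays, a setting chosen after seeing the data, there was also 1 (Mup21, -2.82, adjusted p = 0.0262). This setting compares only Sav1+/- arrays of high Y-linked signal with wild-type arrays of low signal. Its call cannot be told apart from a difference that goes with that signal. Genes above additivity at an unadjusted p under 0.05 numbered 424 with arrays centred on the median and 550 to 1312 when single arrays were left out, the highest without Sav1+/- replicate 2. Genes below numbered 130 over the 11 arrays of low Y-linked signal, 918 with array weights, 802 without both low-weight arrays, and 340 to 703 when single arrays were left out. Over the 11 arrays of low Y-linked signal the medians were -0.21 for ribosomal and -0.01 for mitochondrial ribosomal proteins, and the Kupffer and B cell medians were reversed at -0.42 and -0.44. The erythroid median was reversed at 0.21 with array weights and 0.33 without both low-weight arrays, and ran from -0.52 to 0.36 when single arrays were left out. The female-biased median was 3.06 without both low-weight arrays. Cholangiocyte markers were reversed with no filter (0.04) and neutrophil markers at a filter of the 60th percentile (0.25). When single arrays were left out, medians crossed 0 for cell cycle genes (-0.21 to 0.12), neutrophil (-0.50 to 0.20), T and NK cell (-0.09 to 0.16) and hepatocyte markers (-0.02 to 0.24). The causes were not tested. The medians of interferon-stimulated genes (-0.81 to -0.36), ribosomal proteins (-0.45 to -0.21), pericentral genes (0.23 to 0.45), amino acid transporters (0.28 to 0.59), complement genes (0.21 to 0.44) and bile acid genes (0.21 to 0.40) kept their direction in all 28 settings. No paired analysis was possible because no label numbers the replicates.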

Other observations

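Cell adhesion and extracellular matrix genes, which link cells to each other and to their surroundings, had an interaction above 0 for all 15 measured members, where 62.4% of all genes did, with a median of 0.29. At an unadjusted p under 0.05, 1 member (6.67%) was above, near the 5.76% of all genes. Their mean level was 9.35, 9.33, 9.35 and 9.33 in Rassf1a-/- Sav1+/- livers, 9.23, 8.83, 8.96 and 9.25 in Rassf1a-/- livers, 8.79, 9.50, 8.96 and 9.08 in Sav1+/- livers, and 9.16, 8.87, 9.15 and 9.20 in wild-type livers. The combined genotype was the most even of the 4 and lay above every Rassf1a-/- and wild-type array.

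Proteasome subunits, which degrade tagged proteins, lay on the other side, with a median of -0.13 over 31 members. At the unadjusted threshold 3 (9.68%) were below and 0 above, against 3.63% and 5.76% of all genes. Fatty acid oxidation genes had a median of 0.25, with 25 of 31 above 0. Targets of the unfolded protein response had 0.20, with 21 of 26 above 0, against 62.4% of all genes. In both, 1 member was above at the unadjusted threshold, a share below the 5.76% of all genes. The mean level of fatty acid oxidation genes also followed the Y-linked signal. It was 10.16 to 10.68 on the 5 arrays of high Y-linked signal and 10.79 to 11.31 on the other 11. Their interaction cannot be told apart from the uneven spread of that signal over the genotypes. The lists of this section are outside the rule by which lists were described.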
